A study of Arabidopsis thaliana with 6 samples.

Results

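The genes described here are 10 genes of cuticular wax synthesis in Arabidopsis thaliana siliques, the seed pods of this plant, out of 27628 loci in the deposited count table. They were picked by locus as CER1, CER2, CER3, CER4, CER5, KCS6 (also known as CER6), KCS5, KCS1, WSD1 and MAH1, and all 10 were found and passed the expression filter. Of the 6 silique libraries, 3 carry the genotype label shp1 shp2 mrpl1, a triple mutant, and 3 the label wild type (WT). The labels place every plant on sucrose-supplemented Murashige and Skoog medium under long days. They give neither the alleles nor the age of the siliques, and nothing says that the 3 libraries of a genotype are from different plants, so p-values measure the spread between these samples only, which may be technical.

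Cuticular wax coats the outer wall of the epidermis and limits water loss from leaves, stems and fruits. Its precursors are very-long-chain fatty acids, which the fatty acid elongase builds in the endoplasmic reticulum by repeated rounds of condensation, reduction, dehydration and reduction. One branch then turns the acyl chains into aldehydes, alkanes, secondary alcohols and ketones, and another turns them into primary alcohols and wax esters, before transporters carry the products out of the cell.

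The depth was 20563995, 17857873 and 20957661 estimated counts in mutant-labelled replicates 1 to 3 and 20883220, 21603816 and 19969915 in WT replicates 1 to 3. A gene was called when its p from edgeR's quasi-likelihood test, after Benjamini-Hochberg adjustment across the 20827 genes tested, was under 0.05; this held for 8.95% of them, 4.89% higher and 4.07% lower in libraries labelled shp1 shp2 mrpl1. Of the called genes 54.6% were higher, and 65.1% under scaling by library totals alone. Replicate 1 stood apart in both groups: the chi-square per degree of freedom against its mates was 9.13 and 7.79 in the mutant-labelled group and 11.95 and 12.07 in WT, while replicates 2 and 3 gave 3.13 and 2.54. Not every gene that the genotype names followed its label. SHP1 was lower (log2 fold change −0.51, edgeR adjusted p = 0.00242), and overlaps annotated antisense genes by up to 564 bases. SHP2 stood at 106 ± 3.79 CPM in the mutant-labelled libraries and 107 ± 2.86 CPM in WT, and overlaps an antisense gene by 1756 bases. AT2G42710, assumed here to be the mrpl1 locus although the reference gives only an L1p/L10e ribosomal protein and no symbol, stood at 17.1 ± 1.05 CPM in the mutant-labelled libraries and 14.5 ± 1.35 CPM in WT (SD, n = 3 each), not called. Directions below are therefore between libraries as labelled.

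Of the 10 wax synthesis genes, 7 were called higher and 0 lower in the libraries labelled shp1 shp2 mrpl1, against a background of 4.89% called higher and 8.95% called in either direction. The genes that rose were the condensing enzyme genes KCS6, KCS5 and KCS1, the elongation factor gene CER2, the alkane branch genes CER1 and MAH1, and the exporter gene CER5. CER3, CER4 and WSD1 were not called. All 10 log2 fold changes were positive, from 0.04 to 0.63, with a median of 0.33, where the median over all tested genes was 0.00 and 49.7% of them were positive. At an unadjusted p under 0.05, 8 members were higher and 0 lower; DESeq2 called 6 higher and 0 lower, and limma voom 7 and 0. For 8 members every mutant-labelled library lay above every WT library, which held for 13.7% of all tested genes. The summed level of the 10 genes was 1173, 1133 and 1192 CPM in mutant-labelled replicates 1 to 3 and 909, 975 and 945 CPM in WT replicates 1 to 3. In whole siliques, more epidermal cells and more of this RNA per cell cannot be told apart. Without mutant-labelled replicate 3 the count of higher members was 3, and without WT replicate 3 it was 4, while with both replicates 1 left out it was 7, with a median of 0.31.

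**Figure D1:**
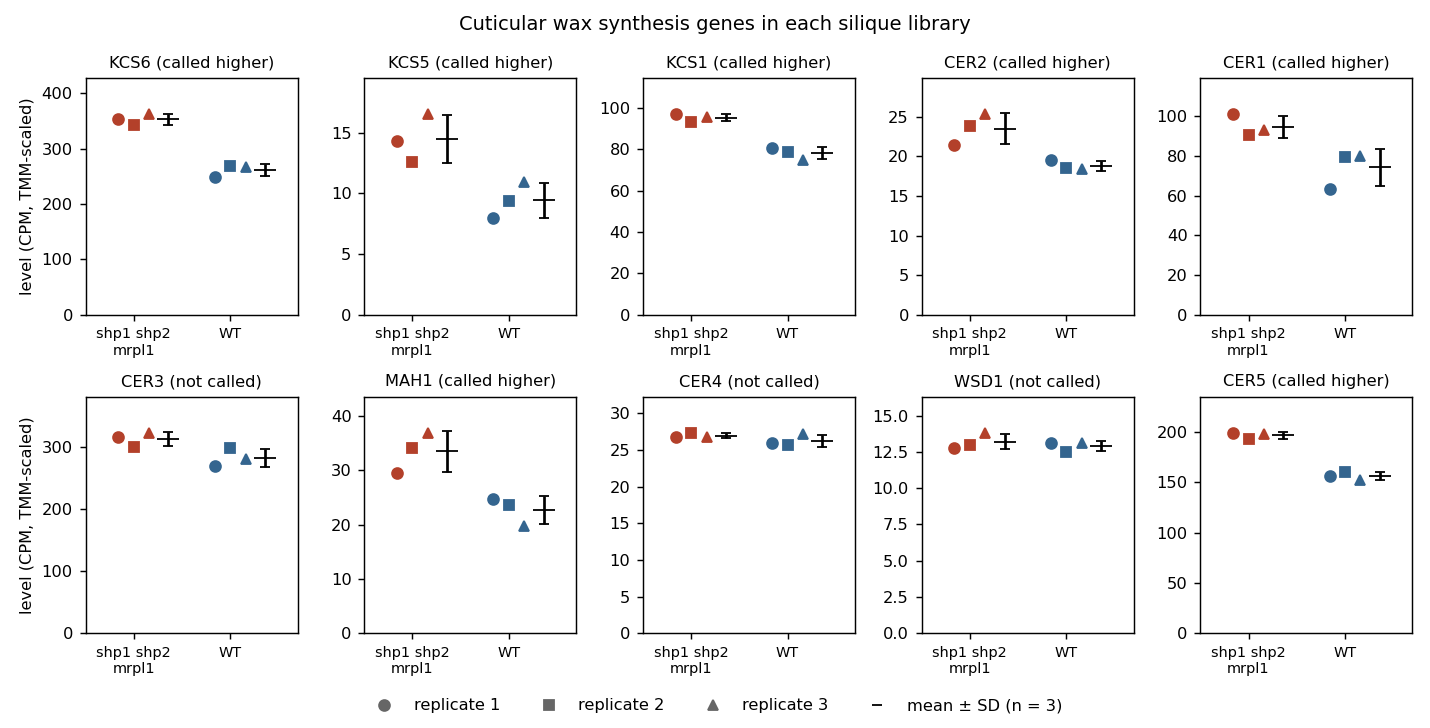
Level of each wax synthesis gene (CPM after TMM scaling, linear axis from 0) in the 3 libraries labelled shp1 shp2 mrpl1 (red, left) and the 3 WT libraries (blue, right); symbols mark the replicate and black bars the mean ± SD. The groups are apart for 8 genes, and overlap for CER4 and WSD1.

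The region before each gene's start was read from TAIR10.1, the RefSeq assembly, because 7 members moved the same way; the deposited table names no build, so the coordinates are those of the reference alone. In the 250 bases before the start, KCS6 held 1 ACCAAAC and CER2 1 ACCTAAC, letters of the kind bound by R2R3 MYB factors, which were present on either strand in 8.28% and 2.47% of 27418 such windows. None of the 10 windows held TAAATGCA or TAAATGTA (the L1 box of epidermal genes, in 1.56% and 3.0% of all windows), GCCGCC (the GCC box of ERF factors, 1.87%), CACGTG (the G box, 6.48%) or a CArG box, the motif of MADS factors such as SHP1 (2.52%), each searched on both strands. TATAAA on the gene's own strand was present in 5 windows, those of KCS6, CER1, CER4, WSD1 and CER5, against 32.9% of all windows; no searched motif overlaps another in these windows. A match is a description of letters and no more. The windows of KCS6 and CER2, of MAH1, which also rose, and of CER4, which was not called, are printed 5′ to 3′ on the gene's strand with matches in capitals. They lie at chr1:25715025-25715274 (minus strand), chr4:12660437-12660686 (plus), chr1:21385710-21385959 (minus) and chr4:16207957-16208206 (minus), and another annotated gene reaches into the CER2 window.
KCS6: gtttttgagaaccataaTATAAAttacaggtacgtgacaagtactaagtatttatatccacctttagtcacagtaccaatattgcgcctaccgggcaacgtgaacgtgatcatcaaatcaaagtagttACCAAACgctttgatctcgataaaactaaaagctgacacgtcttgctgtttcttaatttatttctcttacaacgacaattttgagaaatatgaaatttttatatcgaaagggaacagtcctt
CER2: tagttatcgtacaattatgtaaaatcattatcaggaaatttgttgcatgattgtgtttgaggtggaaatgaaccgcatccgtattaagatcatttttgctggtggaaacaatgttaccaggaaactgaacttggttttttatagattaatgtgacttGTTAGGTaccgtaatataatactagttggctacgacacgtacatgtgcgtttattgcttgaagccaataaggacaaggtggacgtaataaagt
MAH1: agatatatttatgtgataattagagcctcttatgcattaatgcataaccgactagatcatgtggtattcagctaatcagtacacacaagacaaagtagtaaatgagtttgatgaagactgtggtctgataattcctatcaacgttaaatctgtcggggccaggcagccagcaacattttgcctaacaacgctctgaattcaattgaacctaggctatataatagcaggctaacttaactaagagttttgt
CER4: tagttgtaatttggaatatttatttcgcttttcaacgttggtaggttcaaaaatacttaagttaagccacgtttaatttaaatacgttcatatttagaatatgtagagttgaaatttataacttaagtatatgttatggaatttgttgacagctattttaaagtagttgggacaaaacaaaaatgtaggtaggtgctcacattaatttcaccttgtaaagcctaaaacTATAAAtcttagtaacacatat

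Among the elongase genes, KCS6 and KCS5 encode closely related condensing enzymes for the longest wax precursors, and KCS1 encodes one with a broader role in wax and other lipids. KCS6 (AT1G68530, chr1:25712414-25715024, minus strand, 2 exons) stood at 354, 343 and 362 CPM in mutant-labelled replicates 1 to 3, against 249, 269 and 267 CPM in WT replicates 1 to 3. Every mutant-labelled library lay above every WT library, and the smallest gap between the groups was larger than the range within either. The log2 fold change was 0.43 (SE 0.0608; edgeR adjusted p = 0.000569), the smallest adjusted p among the members. KCS5 (AT1G25450, chr1:8938387-8940613, minus strand, 2 exons) was far less abundant, at 14.3, 12.6 and 16.5 CPM in the mutant-labelled libraries and 7.95, 9.41 and 10.9 CPM in WT. It had the largest difference of the 10, 0.63 (SE 0.132; edgeR adjusted p = 0.00941), and also the widest spread, with a coefficient of variation of 13.5% and 15.4% in the mutant-labelled and WT libraries. Replicate 3 was highest in both groups for this gene, and its call was lost without mutant-labelled replicate 3 (0.52, edgeR adjusted p = 0.0683).

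KCS1 (AT1G01120, chr1:57164-59215, minus strand, 1 exon) stood at 96.9, 93.4 and 95.7 CPM in the mutant-labelled libraries and 80.5, 79.0 and 74.8 CPM in WT. The mutant-labelled libraries had a coefficient of variation of 1.82% and did not overlap with WT. The log2 fold change was 0.29 (SE 0.0663; edgeR adjusted p = 0.0152). The call was lost without mutant-labelled replicate 3 (0.28, edgeR adjusted p = 0.0855), WT replicate 2 (0.30, edgeR adjusted p = 0.0574) or WT replicate 3 (0.26, edgeR adjusted p = 0.0958). CER2 (AT4G24510, chr4:12660687-12662656, plus strand, 2 exons) encodes a protein of the BAHD acyltransferase family that lets the elongase reach the longest chains. It stood at 21.4, 23.8 and 25.3 CPM in the mutant-labelled libraries and 19.5, 18.5 and 18.4 CPM in WT, a difference of 0.32 on the log2 scale (SE 0.0885; edgeR adjusted p = 0.0371). The groups were separated by mutant-labelled replicate 1, the lowest of its group, and WT replicate 1, the highest of its own. Annotated antisense genes overlap CER2 by up to 316 bases, and no strand setting was given, so its count may include antisense reads. DESeq2 did not call CER2 (adjusted p = 0.0595), nor did edgeR without mutant-labelled replicate 2 or 3 or WT replicate 2 or 3 (edgeR adjusted p = 0.118, 0.201, 0.125 and 0.143, in that order).

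In the alkane branch, CER1 and CER3 act together to make alkanes from very-long-chain acyl-CoA, and MAH1, a cytochrome P450 listed as CYP96A15, hydroxylates alkanes to secondary alcohols and ketones. CER1 (AT1G02205, chr1:418416-422579, plus strand, 10 exons) stood at 101, 90.5 and 93.1 CPM in the mutant-labelled libraries and 63.4, 79.4 and 80.1 CPM in WT. WT replicate 1 was well below the other WT libraries, which widened the WT spread to 12.7%. The log2 fold change was 0.35 (SE 0.0915; edgeR adjusted p = 0.0296), and 0.20 with both replicates 1 left out (edgeR adjusted p = 0.0054). The call was lost without mutant-labelled replicate 1 (0.31, edgeR adjusted p = 0.0547), 2 (0.38, edgeR adjusted p = 0.0612) or 3 (0.36, edgeR adjusted p = 0.103), or WT replicate 3 (0.41, edgeR adjusted p = 0.0547). MAH1 (AT1G57750, chr1:21383812-21385709, minus strand, 1 exon) stood at 29.5, 34.1 and 36.9 CPM in the mutant-labelled libraries and 24.7, 23.7 and 19.7 CPM in WT. Its log2 fold change was 0.56 (SE 0.106; edgeR adjusted p = 0.00444), or 1.48 times the WT level, and it was called in all 15 alternatives tried.

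CER3 (AT5G57800, chr5:23420184-23424117, plus strand, 11 exons) stood at 317, 301 and 323 CPM in the mutant-labelled libraries and 270, 298 and 281 CPM in WT. The groups did not overlap, but mutant-labelled replicate 2 and WT replicate 2 were close to each other. The log2 fold change was 0.15 (95% interval 0.01 to 0.28; edgeR adjusted p = 0.185), so CER3 was not called, although a correction for transcript length called it higher (0.21, edgeR adjusted p = 0.0051). The ratio of CER1 to CER3 CPM was 0.318, 0.301 and 0.288 in mutant-labelled replicates 1 to 3 and 0.235, 0.267 and 0.285 in WT replicates 1 to 3.

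In the alcohol branch, CER4, a fatty acyl reductase also called FAR3, makes primary alcohols, and WSD1 joins them to fatty acids as wax esters. CER4 (AT4G33790, chr4:16204096-16207956, minus strand, 10 exons) stood at 26.7, 27.3 and 26.7 CPM in the mutant-labelled libraries and 25.9, 25.7 and 27.2 CPM in WT. WSD1 (AT5G37300, chr5:14767426-14770396, plus strand, 7 exons) stood at 12.8, 13.0 and 13.8 CPM in the mutant-labelled libraries and 13.1, 12.5 and 13.1 CPM in WT. The groups overlapped for both genes. The log2 fold change was 0.04 for CER4 (95% interval −0.13 to 0.20; edgeR adjusted p = 0.833) and 0.04 for WSD1 (95% interval −0.16 to 0.24; edgeR adjusted p = 0.858), so differences of the size seen in KCS6 or MAH1 lay outside both intervals. As a ratio to CER4, CER1 stood at 3.77, 3.31 and 3.49 in mutant-labelled replicates 1 to 3 and 2.45, 3.09 and 2.95 in WT replicates 1 to 3. MAH1 stood at 1.11, 1.25 and 1.39 times CER4 in the mutant-labelled libraries and 0.957, 0.920 and 0.725 times CER4 in WT. These ratios of CPM, not adjusted for length, were chosen after the values were seen and were not tested.

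CER5, listed as ABCG12 (AT1G51500, chr1:19097712-19101265, minus strand, 8 exons), encodes an ABC transporter of the plasma membrane that exports wax. It stood at 199, 193 and 198 CPM in the mutant-labelled libraries and 156, 160 and 152 CPM in WT. The spread was small in both groups, 1.63% and 2.51%, and the groups were far apart. The log2 fold change was 0.34 (SE 0.0601; edgeR adjusted p = 0.00306), and the call held without each library in turn.

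**Figure D2:**
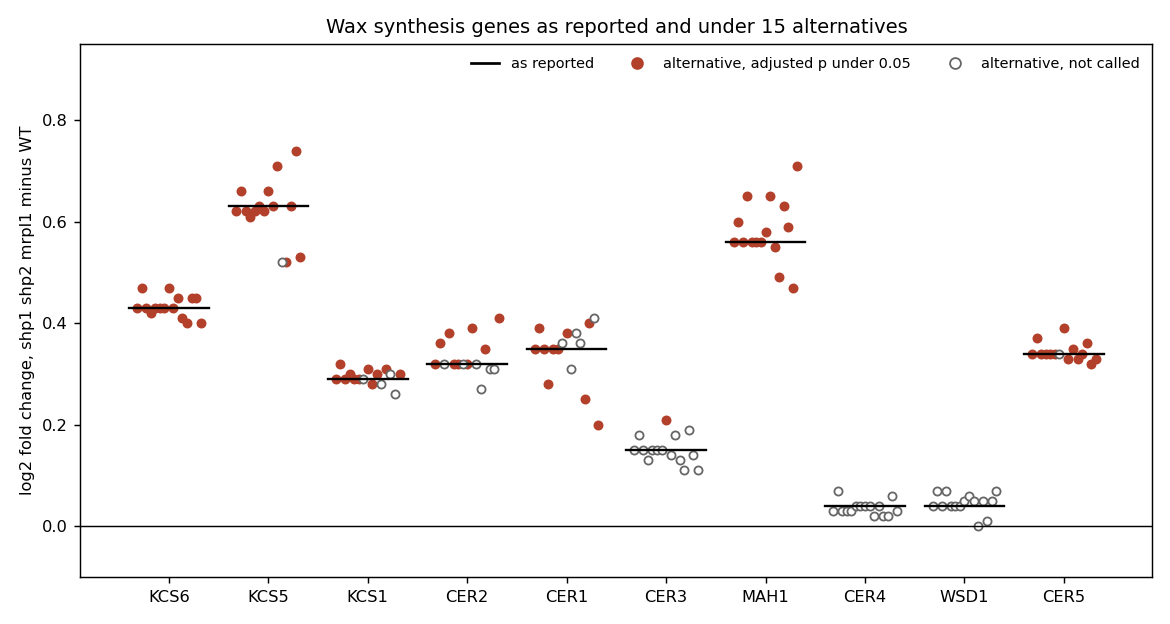
Log2 fold change, libraries labelled shp1 shp2 mrpl1 minus WT, of each wax synthesis gene as reported (black line) and under 15 alternatives (points; filled where the adjusted p is under 0.05). KCS6 and MAH1 are filled throughout, CER1 and CER2 lose the call in 5 and 6 alternatives, and CER4 and WSD1 stay between 0.00 and 0.07 and are open throughout.

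Compared per length of transcript, the order of levels was the same in both groups except for 1 neighbouring pair, MAH1 and CER4. In the mutant-labelled libraries KCS6 was highest, at 157 ± 4.28 CPM per kilobase, followed by CER3 (121 ± 4.35), CER5 (75.4 ± 1.23), KCS1 (46.5 ± 0.847), CER1 (45.9 ± 2.57), MAH1 (17.7 ± 1.97), CER4 (15.1 ± 0.208), CER2 (14.5 ± 1.19), WSD1 (7.06 ± 0.281) and KCS5 (6.89 ± 0.927), each a mean ± SD over 3 libraries. Neighbours whose libraries overlapped there were KCS1 and CER1, CER4 and CER2, and WSD1 and KCS5. In WT the levels per kilobase were 116 ± 5.0 for KCS6 and 109 ± 5.38 for CER3, which overlapped, and 59.7 ± 1.5 for CER5. KCS1 (38.1 ± 1.44) and CER1 (36 ± 4.57) overlapped as well, as did MAH1 (12 ± 1.4) and CER2 (11.5 ± 0.367). CER4 (14.8 ± 0.441) lay above MAH1 in WT and below it in the mutant-labelled libraries, with no overlap in either group. WSD1 (6.88 ± 0.199) and KCS5 (4.47 ± 0.690) were lowest. With coding length in place of transcript length, CER2 and CER4, and KCS5 and WSD1, changed places in the mutant-labelled libraries.

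Beyond the 3 listed condensing enzymes, Arabidopsis has 18 other KCS genes, of which 16 were tested, with a median log2 fold change of 0.15. Of these 16, 4 rose and 2 fell, against 4.89% and 4.07% of all tested genes. The 4 that rose were KCS16 (0.63, SE 0.0794), KCS19 (0.55, SE 0.0777), KCS12 (0.50, SE 0.0778) and KCS8 (0.49, SE 0.0791), with edgeR adjusted p between 0.000278 and 0.00151, and each was called in all 15 alternatives. KCS18, also called FAE1, which elongates the fatty acids of seed oil, stood at 370 ± 10.9 CPM in the mutant-labelled libraries and 441 ± 15.2 CPM in WT (SD, n = 3 each; −0.25, edgeR adjusted p = 0.0169). KCS17 fell by 0.27 on the log2 scale (edgeR adjusted p = 0.0447). Both calls were lost without mutant-labelled replicate 2 or 3 or WT replicate 2 (edgeR adjusted p = 0.0809, 0.0763 and 0.0825 for KCS18, and 0.193, 0.15 and 0.12 for KCS17), that of KCS17 also without WT replicate 3 (edgeR adjusted p = 0.137), with library totals (edgeR adjusted p = 0.0731) and by DESeq2 (adjusted p = 0.0511). KCS10, or FIDDLEHEAD, needed for the epidermal surface, differed by 0.11 on the log2 scale (edgeR adjusted p = 0.44). Of the summed per-kilobase level of all 21 KCS genes, KCS6 held 17.1%, 17.9% and 17.9% in mutant-labelled replicates 1 to 3 and 13.7%, 14.2% and 14.6% in WT replicates 1 to 3, while KCS18 held 25.2%, 25.7% and 25.3%, against 34.2%, 32.4% and 31.7% in WT.

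**Figure D3:**
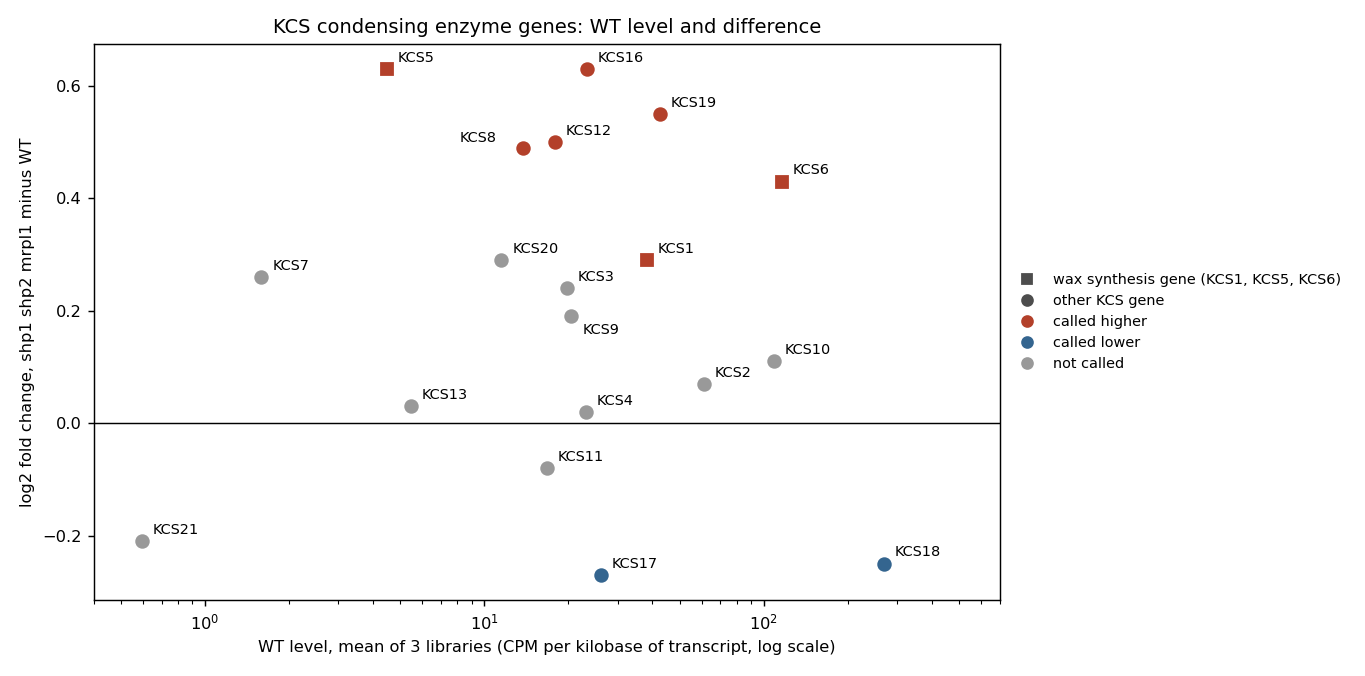
WT level (mean of 3 libraries, CPM per kilobase of transcript, log axis) and log2 fold change (libraries labelled shp1 shp2 mrpl1 minus WT) of the 19 tested KCS genes; squares mark KCS6, KCS5 and KCS1, and colour marks the call. The 7 genes called higher span WT levels from 4.47 for KCS5 to 116 for KCS6, and KCS18, at 269, is called lower.

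The other wax pathway genes, 51 loci in 5 lists, included 45 tested genes, of which 11 rose and 6 fell, against backgrounds of 4.89% and 4.07%; their median log2 fold change was 0.11. Among 7 partners of elongation, 2 rose: CER26, a relative of CER2, at 301 ± 14.5 CPM in the mutant-labelled libraries and 229 ± 19.1 CPM in WT (0.40, edgeR adjusted p = 0.00363), and LACS1, also CER8, which activates very-long-chain fatty acids (0.29, edgeR adjusted p = 0.0114). The call of LACS1 was lost without WT replicate 3 (0.30, edgeR adjusted p = 0.0562). The other core enzymes of the elongase were not called: KCR1, the ketoacyl reductase, had a log2 fold change of 0.02, PAS2, the dehydratase, 0.21 (edgeR adjusted p = 0.0888) and CER10, the enoyl reductase, 0.11. Of 3 export genes, 2 rose, ABCG11, the half-transporter that pairs with CER5 (0.33, edgeR adjusted p = 0.0244), and LTPG2, a lipid transfer protein of the cell surface (0.28, edgeR adjusted p = 0.0248). ABCG11 shared 17.3% of its 50-base windows with an overlapping gene on the other strand, so its count is uncertain. Its call was lost without mutant-labelled replicate 1 or 3 or WT replicate 3, and that of LTPG2 without replicate 2 or 3 of either group (edgeR adjusted p between 0.0607 and 0.142).

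Relatives of CER1, CER4 and WSD1 did not follow the 7 members called higher, of which CER4 and WSD1 are not part. Of 7 tested, 0 rose and 4 fell, against 4.89% and 4.07% of all tested genes. Their median was −0.29, with 0 higher at an unadjusted p under 0.05 or by DESeq2 or limma voom. FAR5, FAR4 and FAR1 encode reductases that make the primary alcohols of suberin, the barrier polymer of roots and seed coats. FAR5 stood at 9.21 ± 0.707 CPM in the mutant-labelled libraries and 13.5 ± 0.905 CPM in WT (−0.55, edgeR adjusted p = 0.00483). FAR4 fell by 0.42 (edgeR adjusted p = 0.00367) and FAR1 by 0.26 (edgeR adjusted p = 0.0267) on the log2 scale. AT3G49210, annotated as a WSD1-like acyltransferase, fell by 0.29 (edgeR adjusted p = 0.0488). The call of AT3G49210 was lost without any one library except WT replicate 1 (edgeR adjusted p between 0.0898 and 0.185), with library totals (edgeR adjusted p = 0.078), with no expression filter (edgeR adjusted p = 0.0538) and by DESeq2 (adjusted p = 0.101). That of FAR1 was lost without replicate 2 or 3 of either group (edgeR adjusted p between 0.0656 and 0.156) and with library totals (edgeR adjusted p = 0.0544). FAR1 overlaps an antisense gene by 1310 bases and FAR4 one by 198 bases.

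Of 12 tested regulators, 3 rose and 0 fell, against 4.89% and 4.07% of all tested genes. DEWAX (AT5G61590), an ERF factor known to repress wax genes, stood at 21.2 ± 1.77 CPM in the mutant-labelled libraries and 12.6 ± 1.46 CPM in WT (0.75, SE 0.107; edgeR adjusted p = 0.000636). AT5G07580, annotated as an ethylene-responsive transcription factor, stood at 17.0 ± 1.77 CPM in the mutant-labelled libraries and 7.54 ± 0.537 CPM in WT (1.17, SE 0.112; edgeR adjusted p = 3.19e-05). MYB16, a regulator of cuticle formation, was scarce, at 3.45 ± 0.0808 CPM in the mutant-labelled libraries and 1.99 ± 0.200 CPM in WT (0.79, edgeR adjusted p = 0.0119), and its call was lost without mutant-labelled replicate 3 (0.78, edgeR adjusted p = 0.0572) or WT replicate 3 (0.71, edgeR adjusted p = 0.0615). Among MYB activators of wax genes, MYB96 had a log2 fold change of 0.35 (95% interval 0.06 to 0.64; edgeR adjusted p = 0.135), MYB94 one of 0.02 (95% interval −0.17 to 0.21) and MYB30 one of 0.01 (95% interval −0.23 to 0.24). For MYB96 the groups did not overlap. It was called higher in 2 of 15 alternatives, limma voom (0.44, adjusted p = 0.0274) and both replicates 1 left out (0.47, edgeR adjusted p = 0.0189). MYB94 and MYB30 were called in 0. The regulators SHN1 and SHN2 did not pass the expression filter. No regulator was lower at an unadjusted p under 0.05, by DESeq2 or by limma voom.

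**Figure D4:**
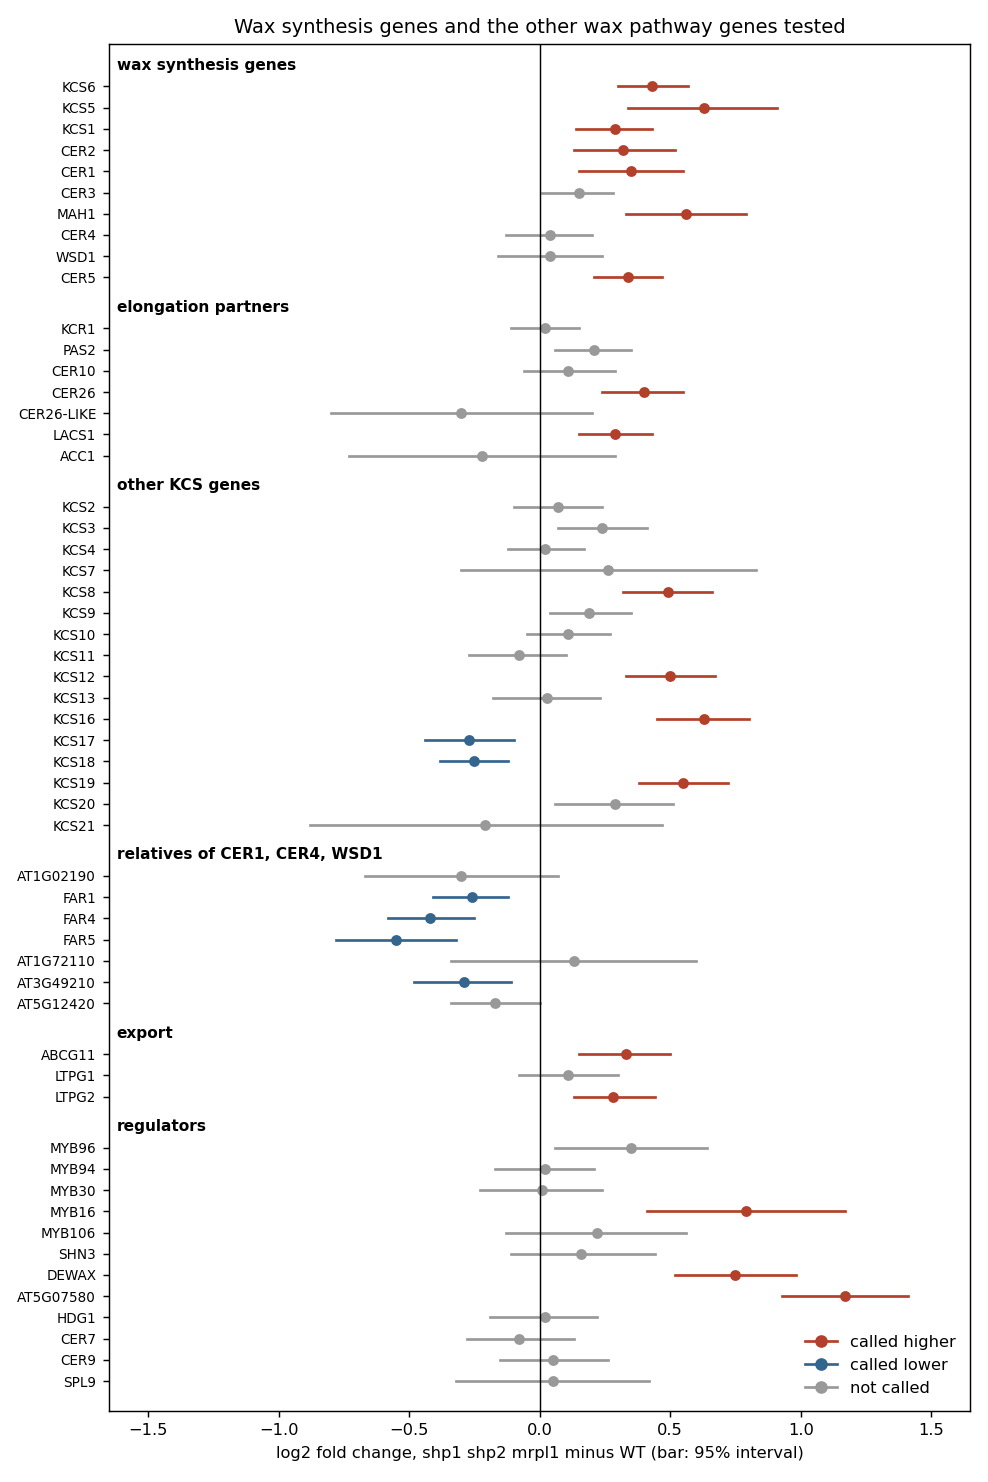
Log2 fold change (libraries labelled shp1 shp2 mrpl1 minus WT) with its 95% interval for the 10 wax synthesis genes and 45 other tested wax pathway genes, in 6 lists; red is called higher, blue called lower and grey not called. The blue points are FAR1, FAR4, FAR5, AT3G49210, KCS17 and KCS18, and the point farthest to the right is AT5G07580 at 1.17.

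Markers of the tissues in a silique moved with these genes in part. The counts below stand beside 4.89% called higher and 4.07% called lower over all tested genes. Of 7 epidermis markers, 2 rose, LTP1 (listed as LP1; 1.12, edgeR adjusted p = 4.9e-05) and HDG2 (0.36, edgeR adjusted p = 0.017), while ATML1 (0.10), PDF2 (−0.07), PDF1 (−0.22), ACR4 (listed as CR4; −0.07) and KCS10 (0.11) were not called. Their summed level was 1148, 1025 and 1115 CPM in mutant-labelled replicates 1 to 3 and 931, 1053 and 1038 CPM in WT replicates 1 to 3, so the groups overlapped. Without LTP1 and HDG2 the other 5 summed to 908, 748 and 824 CPM in the mutant-labelled libraries and 779, 913 and 908 CPM in WT. These sums overlapped as well, but only through the replicates 1: in replicates 2 and 3 the mutant-labelled sums lay below those of WT. With both replicates 1 left out, PDF1 (−0.41, edgeR adjusted p = 7.05e-10) and PDF2 (−0.17, edgeR adjusted p = 0.017) were called lower. PDF1 was also called lower by limma voom and without WT replicate 1. The length correction called ATML1 higher (0.20, edgeR adjusted p = 0.0139). HDG2 overlaps an antisense gene by 1667 bases, and its call was lost without mutant-labelled replicate 3 or WT replicate 3 (edgeR adjusted p = 0.0986 and 0.0657). Among 5 tested guard cell lineage markers 1 rose, MYB60 (0.51, edgeR adjusted p = 0.000383), and the list summed to between 97.2 and 98.1 CPM in the mutant-labelled libraries and between 73.8 and 75.7 CPM in WT. MYB60 alone carried that gap: the other 5 listed markers summed to between 21.1 and 22.2 CPM in the mutant-labelled libraries and between 20.6 and 21.8 CPM in WT. FAMA (0.20), EPF1 (0.29), EPF2 (0.09) and TMM (−0.11) were not called, and MUTE, near 0, was not tested. Of 8 seed markers 3 fell, the storage protein genes CRU3 (−0.42) and CRA1 (−0.31) and the oleosin gene OLEO1 (−0.35), and the list summed to between 55243 and 61433 CPM in the mutant-labelled libraries and between 74119 and 77779 CPM in WT. These 3 genes made up at least 93.3% of each library's sum. The other 5 were not called: ABI3 (−0.37), SESA1 (−0.12) and FUS3 (−0.06) had negative log2 fold changes, and TT2 (0.07) and BAN (0.12) positive ones. Every mutant-labelled library lay above every WT library for BAN and below every one for SESA1. ABI3 was called lower in 6 of 15 alternatives, among them DESeq2 (adjusted p = 0.0279) and limma voom (adjusted p = 0.000988). SESA1 was called lower in 1 alternative and BAN higher in 1. Of 6 genes listed here as silique wall markers, 2 fell, FUL (listed as AGL8; −0.30) and YAB3 (−0.32). FIL (listed as AFO; −0.22), STK (0.09), RPL (0.02) and IND (0.31) were not called. The list summed to 246 to 273 CPM in the mutant-labelled libraries and 263 to 267 CPM in WT. Without FUL and YAB3 the sums were 193 to 215 CPM in the mutant-labelled libraries and 197 to 199 CPM in WT, which overlapped. The call of FUL was lost when any library but mutant-labelled replicate 2 was left out (edgeR adjusted p of 0.0585 to 0.2) and with library totals (edgeR adjusted p = 0.0851), and that of YAB3 without replicate 2 or 3 of either group (edgeR adjusted p between 0.102 and 0.135). The 4 anther and pollen markers summed to between 18.8 and 23.6 CPM in the mutant-labelled libraries and between 12.5 and 13.0 CPM in WT, most of it from SKS13, which rose (0.77, edgeR adjusted p = 0.000377), while AMS stood at 0.919 ± 0.275 CPM in the mutant-labelled libraries and 0.552 ± 0.109 CPM in WT and was not called. PTEN1 had the largest difference of this list, at 0.923 ± 0.218 CPM in the mutant-labelled libraries and 0.345 ± 0.227 CPM in WT without overlap (1.43, edgeR adjusted p = 0.0725). PTEN1 was called higher in 4 of 14 alternatives, among them the fit without WT replicate 1 (1.91, edgeR adjusted p = 0.0222). It shared 23.2% of its 50-base windows with an overlapping gene, so its count is uncertain. MS1 had 2 counts in 1 mutant-labelled library and 0 in the rest. The part of these marker differences in the wax gene result was not tested.

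**Figure D5:**
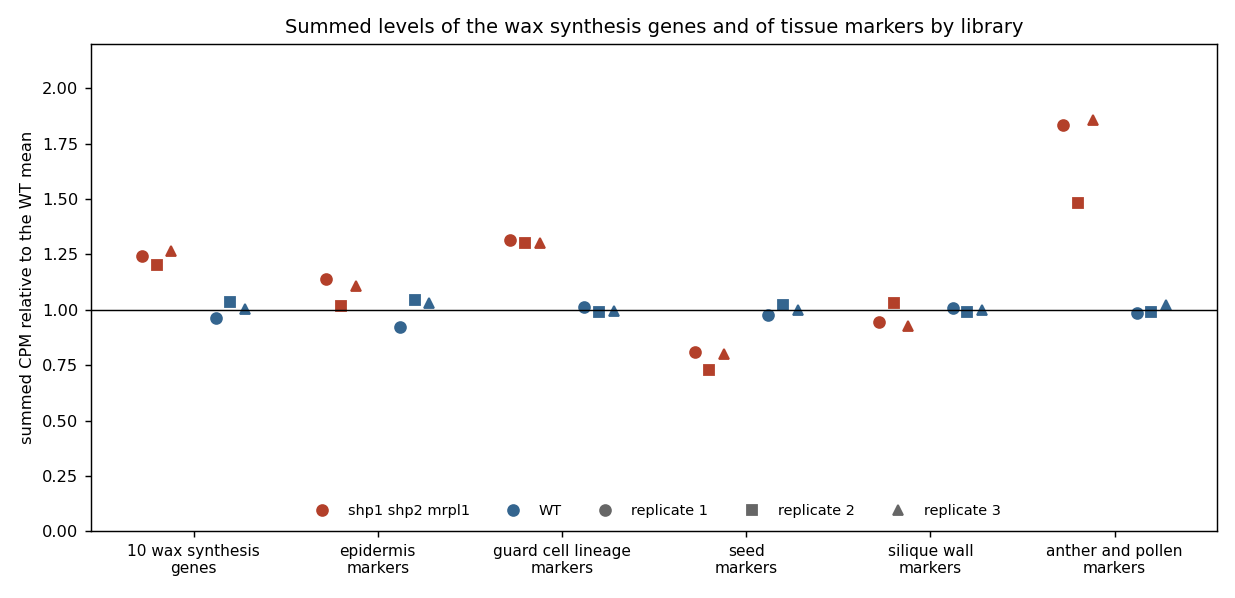
Summed CPM of the 10 wax synthesis genes and of 5 marker lists in each library, divided by the WT mean (line at 1; linear axis from 0); red is shp1 shp2 mrpl1, blue WT, and symbols mark the replicate. The wax genes lie above WT in all 3 mutant-labelled libraries, as do the guard cell sum, through MYB60, and the anther and pollen sum, mostly SKS13. The seed sum, mostly CRU3, CRA1 and OLEO1, lies below. The epidermis sums overlap, as do the silique wall sums, of which STK is the largest part.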

How the data were processed

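The authors deposited 1 table of estimated counts for 27628 transcript identifiers, 1 per locus, with 1 column for each of 6 silique libraries. Trimmomatic 0.39, HISAT2, featureCounts 1.6.3, DESeq2 and FastQC 0.11.9 were used, per the submitters' processing notes, which assign no roles; the build, the annotation, the strand setting and how multi-mapping reads were handled are not given in the sources used here. Per library, 2.95% to 3.47% of the values were not whole numbers (tolerance 1e-09), and none of these belonged to the 10 wax synthesis genes; all were rounded to whole numbers. Groups came from the genotype label and replicate numbers from the titles.

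Counts were fitted with edgeR 4.0.16 in R 4.3.3, using TMM scaling and a genotype term only, after filterByExpr had removed weakly expressed genes (count 10, total 15), with robust dispersion, libraries labelled shp1 shp2 mrpl1 minus WT. Intervals are 95% on the test's degrees of freedom and cover the spread between libraries. The members had between 163 and 7584 counts per library. Levels are CPM after TMM scaling. The fit was tested on simulated data.

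Symbols, lengths and positions were read from RefSeq's TAIR10.1 annotation, which lists 27419 of the identifiers as transcripts. None of the 10 members shared a 50-base window with another transcript. The members, lists and tests were chosen with earlier results of these data known, so lists are described by counts and medians beside all genes. All 10 members are named, with up to 4 called genes of each other list by smallest p (KCS17 and KCS18 were added after their values were seen, as were the uncalled genes and markers named). Names of AT1G02190, AT1G72110, AT3G49210, AT5G12420 and AT5G07580 are their loci, as the reference gives no symbol. Alternatives used DESeq2 1.42.0, limma 3.58.1 voom with quality weights, other scalings and filters, a replicate block, a length correction and left-out libraries.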

Additional observations from a re-analysis of the deposited data

How the results depend on the processing

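Every wax synthesis gene kept a log2 fold change at or above 0 in all 15 alternatives, and their median lay between 0.31 and 0.37. KCS6 and MAH1 were called in all 15, KCS5 and CER5 in 14, KCS1 in 11, CER1 in 10, CER2 in 9, CER3 in 1, and CER4 and WSD1 in 0. The 7 members called higher became between 3 and 7 when single libraries were left out, and the 0 called lower stayed 0 there. With the replicate block, 3 members were higher (KCS6, KCS5 and MAH1), as were 475 genes, with 320 lower; for the other wax pathway genes the block gave 6 higher and 1 lower. The labels do not say whether same-numbered libraries were paired. Deviations of same-numbered libraries from their group means correlated at −0.364, −0.188 and −0.116, and 0 of 3 numbers correlated best with their own. Deviations from a mean of 3 libraries are not independent, so these correlations cannot settle whether samples were paired.

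Over all genes, limma voom called 2118 higher and 2013 lower, the length correction 1756 and 1504, and the fit with both replicates 1 left out 3191 and 3301. Leaving out single libraries gave 578 to 1534 higher and 426 to 1468 lower, and for the other wax pathway genes 7 to 11 higher and 2 to 7 lower; library totals gave 3 lower. The causes were not tested. Longer transcripts had lower log2 fold changes (Spearman's rho −0.25 over 20733 genes, not independent replicates; 0.01 after the correction, which called 8 members higher).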

Other observations

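Some listed genes sit next to each other in TAIR10.1. CER1 lies 388 bases from AT1G02190, annotated in the fatty acid hydroxylase superfamily, on the same strand, and the pair differed in sign: CER1 had a log2 fold change of 0.35 and AT1G02190 one of −0.30, at 6.63 ± 1.02 CPM in the libraries labelled shp1 shp2 mrpl1 and 8.17 ± 1.87 CPM in WT (SD, n = 3 each; edgeR adjusted p = 0.347). AT1G02190 was called lower in 3 of 15 alternatives: without WT replicate 1 (−0.47, edgeR adjusted p = 0.0366), by limma voom (−0.43, adjusted p = 0.0442) and with both replicates 1 left out (−0.60, edgeR adjusted p = 0.000901). The difference between the 2 genes was not tested. KCS17 and KCS18, both lower, lie 442 bases apart on chromosome 4, and FAR4 and FAR5, both lower, 9545 bases apart on chromosome 3. Of the 10 wax synthesis genes, 6 lie on chromosome 1, 2 on chromosome 4 and 2 on chromosome 5.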
